A study of Mus musculus with 8 samples.

Results

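The 31 genes described here encode the enzymes of cholesterol and fatty acid synthesis, the proteins that sense sterols and 1 sterol carrier, and they were measured in the hearts of mouse embryos at E18.5. The members are a list of gene names grouped by role. Of the 41174 non-control probes on the array, 53 carry an accession of 1 of these 31 genes, out of 28223 probes that name 19096 genes. Hearts came from 4 wild-type (WT) embryos and from 4 embryos labelled SIRT1 KO, with 1 heart per one-color Agilent array. SIRT1 is an NAD+-dependent protein deacetylase, and the label stands, in the study's methods, for a whole-body germ-line deletion of its gene. Both genotypes were labelled C57BL/6 (C57BL/6J in the study's methods), from crosses between heterozygous parents kept on chow diet, with no treatment, so by design the deletion was not confined to the heart. In whole hearts, fewer cells of a type and less RNA per cell cannot be told apart.

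Cells adjust their own supply of sterols and fatty acids by feedback. When membrane cholesterol is low, the escort protein SCAP carries SREBP transcription factors from the endoplasmic reticulum to the Golgi, where they are cut and released to the nucleus, and INSIG proteins hold the complex back when sterols are plentiful. SREBP2 acts mainly on genes of the mevalonate and cholesterol pathways and SREBP1 mainly on genes of fatty acid synthesis, and the genes for INSIG1 and for the SREBPs are targets themselves.

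Each value below is the log2 processed intensity of a probe minus the 75th percentile of its array, and a difference is the mean of the hearts labelled SIRT1 KO minus the mean of the WT hearts on that log2 scale. All 14 cardiomyocyte markers were well above background on all arrays, whereas 4 of 8 lung epithelial markers were above it on none. All 4 WT hearts were on one slide scanned on one day and all 4 hearts labelled SIRT1 KO on another slide scanned on another day, so genotype cannot be told apart from slide or scan day. The targeted gene did not follow the labels. Its probe with the highest signal was at -0.14, 0.32, 0.00 and 0.00 in the WT hearts and at 0.64, 0.50, 0.43 and 0.75 in those labelled SIRT1 KO, a difference of 0.54 (SE 0.11, limma adjusted p = 0.0323). Its other probe differed by -0.11 (SE 0.11, limma adjusted p = 0.589), and whether either probe lies in the deleted part was not determined here.

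Most genes of the module stood a little below WT in the hearts labelled SIRT1 KO. Reading each gene from its brightest probe, 26 of 31 genes were lower and 5 were higher (Scap, Acat2, Lss, Tm7sf2 and Fasn), with a median difference of -0.23, or 0.854 of the WT level. With quantile normalization Acat2 and Lss turned lower and Srebf1, Insig2, Pmvk and Dhcr7 turned higher, all of them within 0.10 of 0 on both scalings. The median over 13592 named genes was -0.01, and 51.6% of them were lower. None of the 31 genes passed limma's adjusted p of 0.05 on this probe, beside 4.88% of the 25615 probes tested over the whole array in either direction and 0.91% in the lower direction. At an unadjusted limma p under 0.05, 16 members (51.6%) were lower, against 8.53% of all genes, and 1, Tm7sf2, was higher. Every heart labelled SIRT1 KO was below every WT heart for 13 members (41.9%), against 5.61% of all genes. The reverse held for 0 members, against 8.38% of all genes. The analysis of variance that the methods name also called 0 members, beside 2.13% of all probes, 0.43% in the lower direction.

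**Figure D1:**
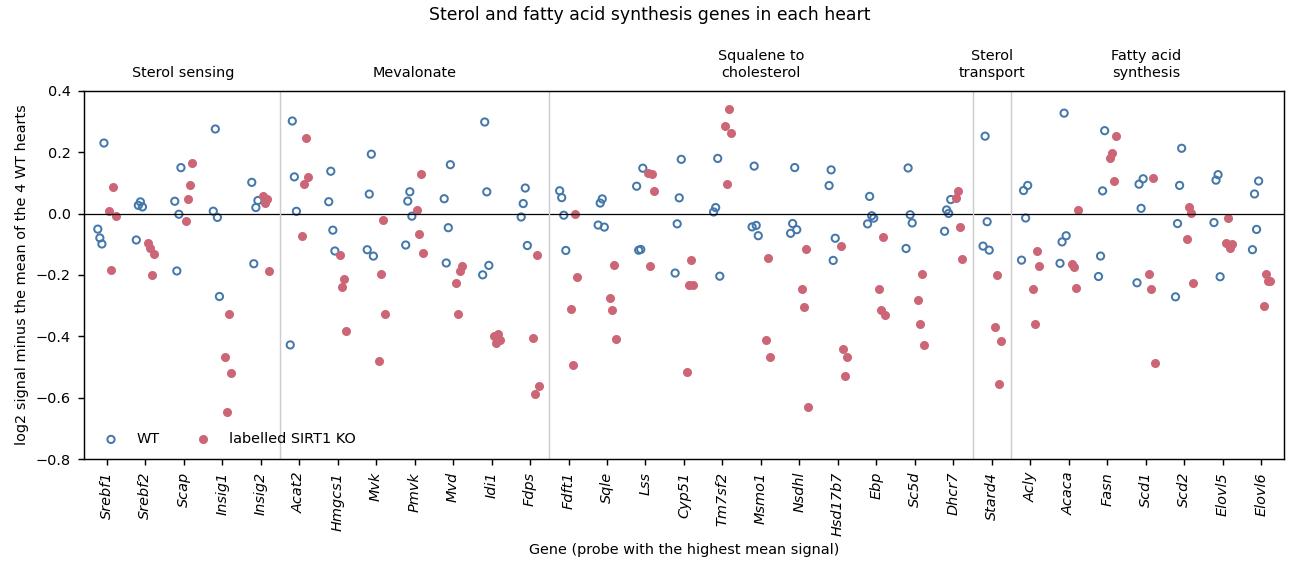
Log2 signal of each of the 31 genes in each heart, as its distance from the average WT heart (vertical axis), in pathway order (horizontal axis). Open points are WT hearts and filled points hearts labelled SIRT1 KO; for 13 genes, among them Insig1, Idi1, Fdps, Sqle and Stard4, all filled points lie below all open ones.

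A single probe of the module passed the threshold, and it belongs to Insig1, the sterol-regulated brake on SREBP processing. This probe, the dimmer of its 2, read -4.00, -3.93, -4.04 and -3.84 in the WT hearts and -4.48, -4.52, -4.15 and -4.49 in those labelled SIRT1 KO. Signal fell by 0.46 on the log2 scale (SE 0.10, limma adjusted p = 0.0345), to 0.729 of the WT level, and the genotypes did not overlap. The brighter Insig1 probe read -2.09, -1.82, -2.11 and -2.37 in the WT hearts and -2.57, -2.74, -2.42 and -2.62 in the others, again without overlap. Its difference of -0.49 (SE 0.12, 95% confidence interval -0.76 to -0.22) had a limma adjusted p of 0.0555. The dimmer probe passed in 1 of 8 fits that left out a heart, the one without SIRT1 KO replicate 3 (adjusted p = 0.00978), and the others gave up to 0.0956. Of 9 alternatives that kept all hearts, the dimmer probe passed in 5, at limma adjusted p of 0.00676 to 0.0347. These were quantile normalization, median scaling, no scaling, a filter for all 8 arrays above background, and the deposited table. The dimmer probe missed the threshold with the methods' analysis of variance (adjusted p = 0.0807) and with no filter on dim probes (limma adjusted p = 0.0725). It also missed it with the replicate number as a block (limma adjusted p = 0.0744). With normexp background correction its difference shrank to -0.07 (limma adjusted p = 0.628), while that of the brighter probe was -0.26 (limma adjusted p = 0.0797).

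The 250 bases upstream of the start of 4 members whose genotypes did not overlap are shown because SREBPs act together with the factor NF-Y at such promoters. They are RefSeq sequences of GRCm38.p6 for Insig1 (chr5:28071162-28071411, plus strand), Hmgcs1 (chr13:119690101-119690350, plus strand), Idi1 (chr13:8885356-8885605, plus strand) and Sc5d (chr9:42264301-42264550, minus strand), each written 5′ to 3′ on the strand of its gene. Capitals mark CCAAT, the NF-Y motif, which reads ATTGG where it lies on the other strand, and TCACNCCAC, the core of the sterol regulatory element.
Insig1: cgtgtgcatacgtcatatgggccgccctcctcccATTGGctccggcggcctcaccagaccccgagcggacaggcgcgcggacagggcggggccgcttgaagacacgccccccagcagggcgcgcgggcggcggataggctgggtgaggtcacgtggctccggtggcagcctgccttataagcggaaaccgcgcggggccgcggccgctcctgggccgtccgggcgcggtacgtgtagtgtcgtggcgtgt
Hmgcs1: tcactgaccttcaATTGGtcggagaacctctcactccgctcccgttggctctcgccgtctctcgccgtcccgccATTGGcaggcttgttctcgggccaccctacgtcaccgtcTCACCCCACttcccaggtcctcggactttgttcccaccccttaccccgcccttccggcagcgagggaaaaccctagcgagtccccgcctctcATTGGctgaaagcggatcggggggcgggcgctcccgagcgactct
Idi1: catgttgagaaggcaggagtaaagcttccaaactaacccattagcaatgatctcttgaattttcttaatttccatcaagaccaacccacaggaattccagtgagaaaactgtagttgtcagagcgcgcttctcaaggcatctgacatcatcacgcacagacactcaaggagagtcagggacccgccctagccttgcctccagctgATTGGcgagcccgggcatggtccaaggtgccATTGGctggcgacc
Sc5d: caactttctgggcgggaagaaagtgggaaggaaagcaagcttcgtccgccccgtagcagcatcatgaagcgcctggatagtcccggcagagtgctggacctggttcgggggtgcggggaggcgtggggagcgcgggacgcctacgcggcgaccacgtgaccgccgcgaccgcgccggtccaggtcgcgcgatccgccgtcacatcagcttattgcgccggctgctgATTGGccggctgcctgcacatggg

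RefSeq promoters, from 250 bases before to 50 after a gene start, were matched for 25 members, and those of Fdps, Fdft1, Sqle, Stard4, Scd1 and Scd2 were not. CCAAT was present on either strand in 21 of the 25 (84.0%), against 41.1% of all 27025 genes with a promoter, and GGGCGG, the Sp1 motif, in 20 (80.0%) against 38.2%. CACGTG, an E-box, was found in 6 against 8.09% of all genes, and TCACNCCAC in 1, Hmgcs1, against 1.44%. No motif searched contains another. Among members whose genotypes did not overlap, 9 of 10 had CCAAT, and 12 of the other 15 members did. These are counts of letters in a window and do not locate binding.

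The other sterol-sensing genes differed less than Insig1 on their brightest probes. Srebf2, which encodes SREBP2, read -0.17, -0.06, -0.05 and -0.06 in the WT hearts and -0.18, -0.19, -0.28 and -0.21 in those labelled SIRT1 KO. The ranges did not overlap but nearly met, at WT heart 1, and the difference was -0.13 (SE 0.07, limma adjusted p = 0.282). Srebf1 differed by -0.02 (95% confidence interval -0.25 to 0.20) and Scap by 0.07 (-0.13 to 0.27), with overlapping genotypes. Insig2, the second brake on SCAP, gave 2 answers. Its brighter probe differed by -0.01 (SE 0.09), while its dimmer probe read 0.18, 0.11, 0.09 and -0.10 in the WT hearts and -0.24, -0.36, -0.21 and -0.23 in the others. All 4 hearts labelled SIRT1 KO were below the lowest WT heart on that probe, with a difference of -0.33 (SE 0.08, limma adjusted p = 0.0543).

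Of the 7 genes of the mevalonate pathway, 6 were lower and 1 higher, with a median of -0.24 and no gene past the threshold. Hmgcs1, whose product joins acetoacetyl-CoA and acetyl-CoA to HMG-CoA, read 3.99, 4.09, 3.89 and 3.83 in the WT hearts and 3.81, 3.71, 3.74 and 3.57 in those labelled SIRT1 KO. The highest of the latter lay just under WT heart 4, and the difference was -0.24 (SE 0.09, limma adjusted p = 0.151). Mvd, the decarboxylase that makes isopentenyl diphosphate, was at -0.24, -0.45, -0.33 and -0.13 in WT hearts and at -0.51, -0.62, -0.47 and -0.46 in the others, a difference of -0.23 (SE 0.09, limma adjusted p = 0.172) without overlap.

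Idi1 and Fdps had the largest differences of the pathway. Idi1, the isomerase that turns isopentenyl diphosphate into its reactive isomer, was at 2.55, 3.04, 2.82 and 2.58 in the WT hearts. In the hearts labelled SIRT1 KO it was at 2.35, 2.32, 2.35 and 2.33, so the 4 were far closer together (SD 0.01) than the WT hearts (SD 0.23). The difference was -0.41 (SE 0.11, limma adjusted p = 0.0777), and it was -0.36 (SE 0.13) on the second probe. Fdps, which condenses these units to farnesyl diphosphate, read 2.10, 2.15, 2.20 and 2.01 in the WT hearts and 1.71, 1.52, 1.98 and 1.55 in the others. SIRT1 KO replicate 3 came just under WT heart 4, and the difference was -0.42 (SE 0.11, limma adjusted p = 0.0627), or 0.746 of the WT level.

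The remaining mevalonate genes overlapped between genotypes. Mvk, the mevalonate kinase, differed by -0.26 and -0.24 on its probes. Pmvk, the next kinase, differed by -0.01 (95% confidence interval -0.20 to 0.17) on one probe and by 0.05 on the other. Acat2, the cytosolic acetoacetyl-CoA thiolase of the first step, read -4.15, -3.42, -3.60 and -3.71 in the WT hearts and -3.79, -3.62, -3.47 and -3.60 in those labelled SIRT1 KO. WT heart 1 was the lowest of the 8 for Acat2, and the difference of 0.10 had an SE of 0.15.

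Between farnesyl diphosphate and cholesterol, 9 of 11 genes were lower and 2 were higher, with a median of -0.28, and 5 did not overlap between genotypes. Sqle, the squalene epoxidase and a slow step of the pathway, read 1.70, 1.77, 1.79 and 1.69 in the WT hearts and 1.46, 1.43, 1.57 and 1.33 in the others. The WT hearts lay within a narrow band (SD 0.05) above all hearts labelled SIRT1 KO, and the difference was -0.29 (SE 0.07, limma adjusted p = 0.0622), or 0.817 of the WT level. Sc5d, which puts in the 5,6 double bond of the sterol ring, was at 1.26, 1.52, 1.37 and 1.35 against 1.09, 1.02, 1.18 and 0.95, a difference of -0.32 (SE 0.08, limma adjusted p = 0.0709).

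Fdft1, the squalene synthase, differed by -0.25 (SE 0.11), with overlap at SIRT1 KO replicate 3.

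The demethylation enzymes were lower as well, though none passed the threshold. Msmo1, the C4-methyl sterol oxidase, read 3.61, 3.80, 3.61 and 3.58 in the WT hearts and 3.24, 3.51 and 3.18 in SIRT1 KO replicates 2 to 4, since the spot of replicate 1 was marked as an outlier by the scanner software and left out. The difference over these 7 hearts was -0.34 (SE 0.11, limma adjusted p = 0.121), and the genotypes did not overlap. Nsdhl, the C4 decarboxylase, was at -0.71, -0.68, -0.50 and -0.70 in the WT hearts and at -0.90, -0.95, -0.76 and -1.28 in the others, without overlap. Its 3 probes differed by -0.40 to -0.25.

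Hsd17b7, the ketoreductase that completes demethylation, differed by -0.39 (SE 0.11, limma adjusted p = 0.0929), with an overlap of genotypes only at SIRT1 KO replicate 1, and its second probe differed by -0.34 with no overlap. Cyp51, the lanosterol 14-demethylase, differed by -0.28 on its brightest probe and by -0.38 and -0.35 on the other two, which did not overlap between genotypes. Ebp, the sterol isomerase, read 3.98, 4.07, 4.01 and 4.00 in the WT hearts and 3.77, 3.70, 3.94 and 3.69 in the others. SIRT1 KO replicate 3 was again the nearest to the WT hearts, and the difference was -0.24 (SE 0.08, limma adjusted p = 0.119).

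A few genes of the same branch did not share this direction. Tm7sf2, a sterol 14-reductase, differed by 0.25 (SE 0.10, limma adjusted p = 0.189), with overlap. Lss, the cyclase that makes lanosterol, read -2.77, -2.98, -2.98 and -2.71 in WT hearts and -2.73, -3.03, -2.73 and -2.79 in the others, fully interleaved, and differed by 0.04 on this probe and by 0.13 on the other. Dhcr7, the last reductase on the way to cholesterol, differed by -0.02 (95% confidence interval -0.19 to 0.15) on one probe and by 0.02 on the other.

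**Figure D2:**
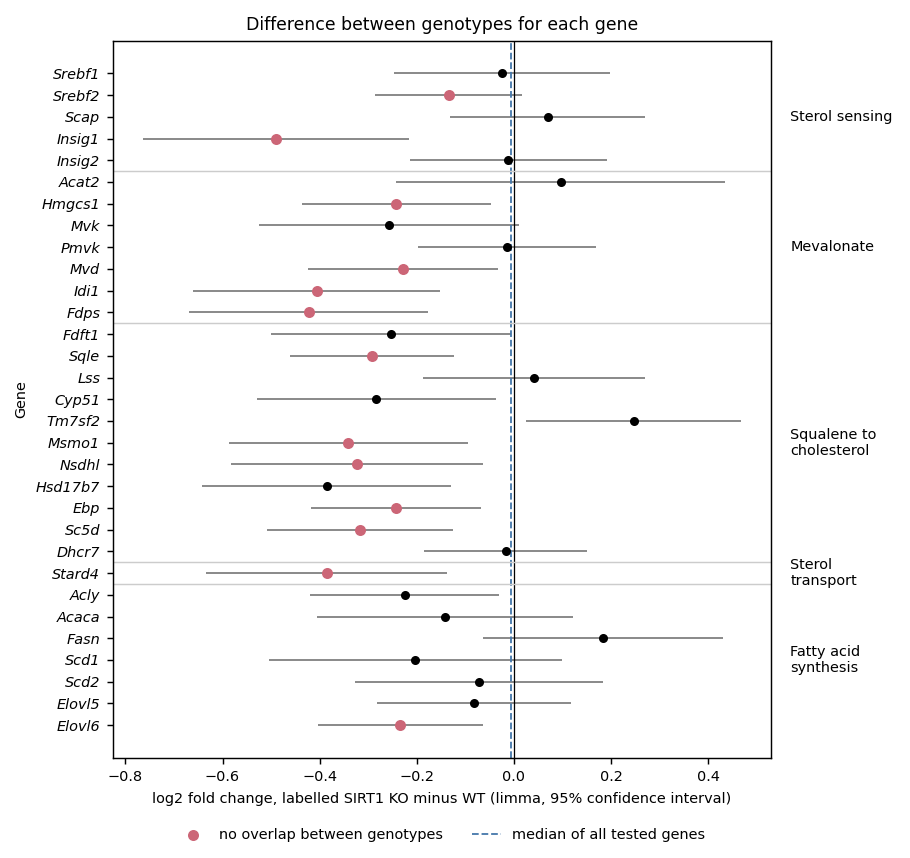
Log2 fold change of each gene (hearts labelled SIRT1 KO minus WT, horizontal axis) with its 95% confidence interval from limma, by role; the dashed line is the median of all tested genes. Filled larger points mark the 13 genes whose genotypes did not overlap, and they run from Insig1 at -0.49 to Srebf2 at -0.13.

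Stard4, a carrier that moves cholesterol between membranes, stood with the sterol enzymes. It read 1.09, 1.45, 1.17 and 1.08 in the WT hearts and 0.83, 1.00, 0.65 and 0.78 in those labelled SIRT1 KO, with no overlap and a difference of -0.39 (SE 0.11, limma adjusted p = 0.0846). Its other two probes differed by -0.15 and -0.20.

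Genes of fatty acid synthesis had a median difference of -0.14 over 7 genes, 6 of them lower and 1 higher, and no gene passed the threshold. That median depended on the hearts and the scaling: it was -0.04 without WT replicate 3, -0.20 without WT replicate 1 and -0.23 with quantile normalization, where the sterol enzymes were at -0.27. Elovl6, which elongates palmitate, was at -0.05, 0.13, 0.01 and 0.17 in the WT hearts and at -0.24, -0.13, -0.16 and -0.16 in the others. It was the single gene of the 7 without overlap on its brightest probe, with a difference of -0.23 (SE 0.08, limma adjusted p = 0.12). Acly, which makes cytosolic acetyl-CoA from citrate, differed by -0.22 (SE 0.09), with WT heart 1 inside the range of the hearts labelled SIRT1 KO.

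Fasn, the fatty acid synthase, read 4.86, 4.92, 5.14 and 5.33 in the WT hearts and 5.24, 5.26, 5.17 and 5.31 in those labelled SIRT1 KO. The WT hearts spanned the others, and the difference of 0.18 (SE 0.11) was not seen on the second probe, at -0.01 (SE 0.16). Scd2, a stearoyl-CoA desaturase, was at 5.01, 5.25, 5.37 and 5.49 against 5.20, 5.30, 5.28 and 5.06, with overlap and a difference of -0.07 (95% confidence interval -0.33 to 0.18). Its relative Scd1 differed by -0.20 (SE 0.13) and Acaca, the acetyl-CoA carboxylase, by -0.14 (SE 0.12). Elovl5, an elongase of polyunsaturated fatty acids, differed by -0.08 on its brighter probe and by -0.46 (SE 0.14, limma adjusted p = 0.0937) on the dimmer one, where the genotypes did not overlap.

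All single-gene differences without overlap of 4 against 4 hearts have p = 0.0286 in the exact two-sided permutation test, the smallest that this design allows. Of the 53 member probes, 48 were tested, and the 5 others (3 of Acaca, 1 of Srebf2 and 1 of Fdft1) were well above background on fewer than 4 arrays. Among the tested probes 40 were lower and 8 higher, and 20 (41.7%) did not overlap in the lower direction, against 5.78% of all tested probes with a gene name. Such a probe was found for 17 of the 31 genes (54.8%), against 7.86% of all genes, with 1.55 tested probes per member and 1.49 per gene. For 14 genes with several tested probes, 10 were lower on every one, Lss was higher on both, and the sign differed for Dhcr7, Fasn and Pmvk.

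**Figure D3:**
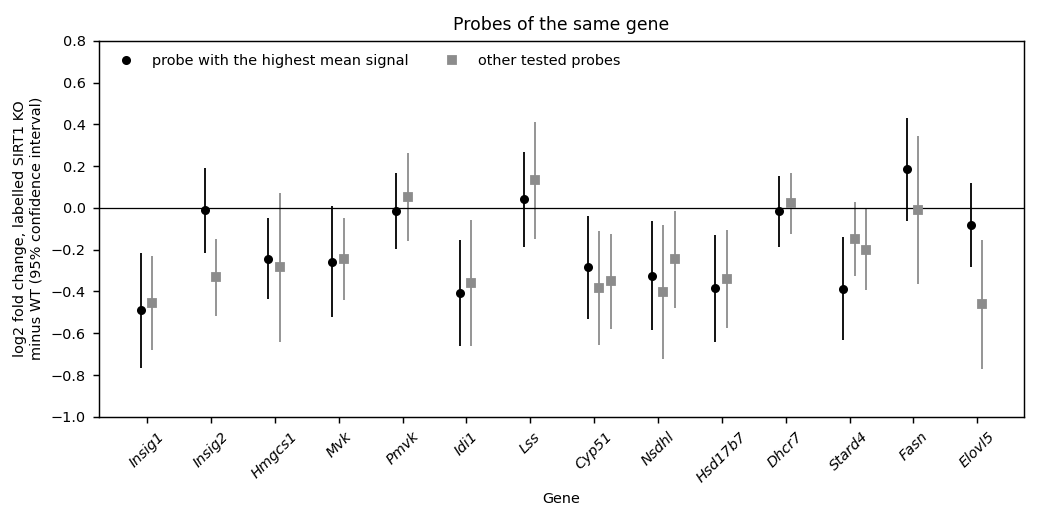
Log2 fold change (hearts labelled SIRT1 KO minus WT, vertical axis) of every tested probe for the 14 genes with more than 1, with 95% confidence intervals from limma. Black circles are the probe with the highest mean signal and grey squares the others; Cyp51, Nsdhl, Hsd17b7, Idi1 and Mvk had similar values on all probes, whereas Insig2 (-0.01 and -0.33) and Elovl5 (-0.08 and -0.46) did not.

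Seen heart by heart, the 18 enzymes from Acat2 to Dhcr7 had a median of -0.25, and their lowest value of the 8 hearts was in a heart labelled SIRT1 KO for 16 genes and their highest in a WT heart for 15. The median deviation of these enzymes from the WT mean was -0.25, -0.31, -0.12 and -0.33 in SIRT1 KO replicates 1 to 4, and between -0.05 and 0.05 in the WT hearts. SIRT1 KO replicate 3 was thus the nearest to the WT hearts, and replicate 4 had the lowest value for 8 of the 18 genes. Without replicate 3, 6 members passed limma's adjusted p of 0.05, all lower (Insig1, Fdps, Sqle, Sc5d, Ebp and Msmo1), as did 7.12% of all probes, 1.72% in the lower direction. The other 7 fits that left out a heart called 0 or 1 member and 2.56 to 4.32% of all probes. For the fatty acid genes the medians were -0.16, 0.06, 0.07 and 0.11 in the WT hearts and -0.16, -0.17, -0.11 and -0.17 in the others, so WT heart 1 was among the latter.

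**Figure D4:**
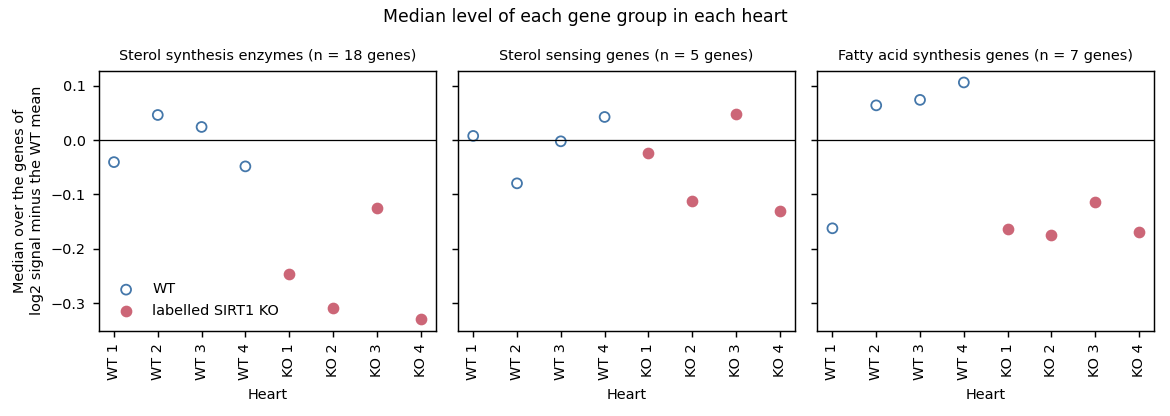
Median, over the genes of a group, of log2 signal minus the WT mean (vertical axis) in each of the 8 hearts. For the sterol synthesis enzymes the 4 hearts labelled SIRT1 KO (filled) lie between -0.33 and -0.12, below all WT hearts (open); for the sterol sensing and fatty acid genes the genotypes overlap.

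Of 9 marker lists, those of liver, cell division and endothelial cells had all tested genes on one side. All 10 tested liver markers had higher values in the hearts labelled SIRT1 KO (median 1.36, 0 past limma's threshold), and the summed level of 12 liver markers, in units of the array's 75th percentile, was 20.7, 16.3, 11.8 and 30.3 in the WT hearts and 136, 20.2, 13.9 and 69.4 in the others. Liver sums of SIRT1 KO replicates 2 and 3 lay within the WT range, and the sterol enzymes of these hearts deviated by -0.31 and -0.12, against -0.25 and -0.33 in replicates 1 and 4. All 11 cell division genes had lower values (median -0.20, 0 past the threshold), with sums of 113, 113, 122 and 113 in WT hearts and 100.1, 104, 125 and 88.7 in the others. Among the 4 hearts labelled SIRT1 KO, replicate 3 had the highest sum and the smallest deviation of the sterol enzymes and replicate 4 the lowest sum and the largest deviation, while replicate 2 had a higher sum than replicate 1 and a larger deviation. All 8 endothelial markers were lower too (median -0.16, 0 past the threshold), with sums of 50.2 to 59.6 and 44.4 to 53.5. Adipocyte markers were higher for 5 of 7 (median 0.33, 0 past the threshold), with sums of 158 to 170 in WT hearts and 144 to 171 in the others. Cardiomyocyte markers were higher for 9 of 14 (median 0.08, 0 past the threshold), with sums of 2489 to 2679 and 2544 to 3008. Erythroid markers were higher for 4 of 7 (sums of 509 to 557 and 440 to 538), and 1 of them, the embryonic globin Hbb-y, rose by 0.92 (limma adjusted p = 0.00782). Macrophage, fibroblast and lung epithelial markers went both ways, with medians between 0.00 and 0.08. The part of these cells in the result was not tested.

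Signal strength also moved with the differences over the whole array. The median difference was 0.10 in the dimmest of 3 equal portions of the probes tested, 0.00 in the middle and -0.03 in the brightest, and the members there had medians of 0.04 (3 genes), -0.23 (11 genes) and -0.24 (17 genes). Choice of scaling shifted all probes together. The median over all probes was 0.01 with the 75th percentile, -0.12 with the array median and -0.21 with no scaling, and the share of calls in the higher direction was 81.4%, 35.5% and 10.1%. With quantile normalization the share was 63.9%. Relative to that median, the members stood at -0.24 under each of the first 3, which a common shift leaves unchanged, and at -0.21 with quantile normalization. The number of members past the threshold, all lower, was 0 with the 75th percentile, where 0.91% of all probes passed in that direction. It was 10 with the array median, beside 4.79% of all probes, and 19 with no scaling, beside 22.3%. With quantile normalization 1 member passed, beside 1.48% of all probes, and with normexp background correction 7, beside 1.75%.

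**Figure D5:**
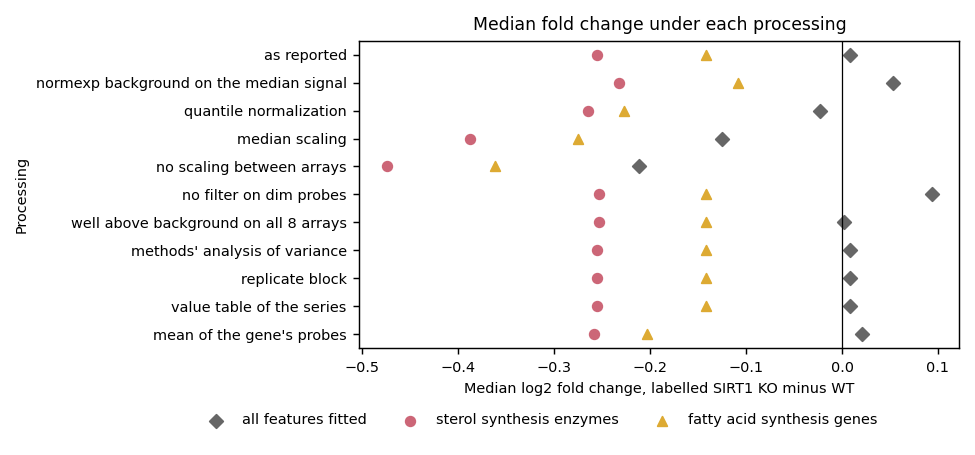
Median log2 fold change (hearts labelled SIRT1 KO minus WT, horizontal axis) of all features fitted (diamonds), the sterol synthesis enzymes (circles) and the fatty acid synthesis genes (triangles) under each way of processing (vertical axis). All 3 medians shift together with median scaling or without scaling, and the sterol enzymes lie to the left of all features in every line; Msmo1 is missing from the 2 lines with another filter on dim probes.

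Other genes of lipid metabolism were split between both directions. Of 59 listed genes, 54 were tested on their brightest probe, 31 lower and 23 higher, with a median of -0.02, and 1 passed the threshold. This was Hsd17b12, the ketoacyl-CoA reductase of the cycle that lengthens fatty acids. It read 0.85, 0.86, 0.84 and 0.88 in the WT hearts and 0.33, 0.38, 0.63 and 0.58 in those labelled SIRT1 KO. The WT hearts were almost identical and all above the others, and Hsd17b12 fell by 0.38 on the log2 scale (SE 0.08, limma adjusted p = 0.0381), though it passed in 2 of 8 fits that left out a heart. The call was also lost with the methods' analysis of variance and with no filter on dim probes. Other genes of fatty acid synthesis and desaturation were lower for 17 of 21 (median -0.11). Genes of sterol uptake, export and storage were lower for 4 of 14 (median 0.06), and those of triglyceride synthesis for 4 of 8 (median 0.00).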

How the data were processed

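Total RNA of 8 E18.5 hearts was labelled with Cy3 and hybridised to one-color Agilent whole mouse genome arrays. The authors deposited, per array, the intensity of each spot from Feature Extraction (12.0.0.7 in the file headers), background-subtracted and not scaled between arrays. A deposited table of the whole series holds the same intensity values. No array had a saturated probe, and 59.5 to 64.9% of probes were well above background; the number of arrays limits the precision.

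From these, log2 of the processed signal was taken, the 75th percentile of each array over non-control spots was subtracted, and spots of a probe were averaged without control spots or spots marked as outliers. Accessions named 68.5% of probes through RefSeq (GRCm38.p6). The 25615 probes well above background on at least 4 arrays were tested with limma 3.58.1 (R 4.3.3) on genotype alone, with Benjamini-Hochberg adjustment over all of them at 0.05. A gene was read from its probe with the highest mean signal. An exact permutation test over hearts, two-sided, was run on single values, and the fit was tested on simulated data. P-values measure the spread between hearts within a slide, and not that between slides or scan days. Motifs were counted on both strands with Python 3.11.15.

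The members and lists were chosen with earlier results of these data known. Values per heart are given for members with a probe past the threshold or without overlap on the brightest probe, and for the 4 highest and 2 lowest mean signals; 2 dimmer probes that differed from the brighter one were added after their values were seen. Alternatives were another background correction, scaling, filter, test or threshold, the replicate block, the mean of a gene's probes and each heart left out. Slide as a block could not be fitted, because each slide held 1 genotype. Probe sequences were not used here, so matches to related genes were not checked.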

Additional observations from a re-analysis of the deposited data

Results flagged for a closer look

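Within a genotype, 1 heart stood apart from the other 3 in 6 of the 61 groups of 4 hearts examined, where chance gives about 1 in 20. Srebf1 was highest in WT replicate 4, at 3.91 beside 3.59 to 3.63 in the other WT hearts. Srebf2 was lowest in WT replicate 1, at -0.17 beside -0.06 to -0.05. Msmo1 was highest in WT replicate 2, at 3.80 beside 3.58 to 3.61, and Nsdhl in WT replicate 3, at -0.50 beside -0.71 to -0.68. Among the hearts labelled SIRT1 KO, Insig2 was lowest in replicate 4, at 2.18 beside 2.40 to 2.42, and Elovl5 was highest in replicate 2, at 2.46 beside 2.36 to 2.37.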

How the results depend on the processing

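The member median lay below the median of all features in all 18 refits, by 0.20 to 0.32 on the log2 scale, and 23 to 30 members were lower. Median scaling, no scaling, the analysis of variance, the replicate block and the deposited table leave this gap all but unchanged by construction. They therefore do not test it. The member median was -0.36 with median scaling and -0.45 with none, and -0.25 to -0.19 with a heart left out. Members called, all lower, are given with the share of all features that passed in the lower direction. They numbered 7 with normexp (1.75%), 1 with quantile normalization (Insig1, 1.48%), 10 with median scaling (4.79%) and 19 with no scaling (22.3%). Where all 8 arrays had to be above background 1 passed (Insig1, 1.13%), and 2 with the mean of the probes (Insig1 and Hsd17b7, 0.91%). At an adjusted p under 0.1 there were 7, beside 2275 of 25615 probes in either direction. With a heart left out, 0 to 6 members passed the threshold (0.32 to 1.72%). Probes past it over the array numbered 2577 with normexp, 1904 with median scaling, 6352 with none, 546 with the analysis of variance, 2275 at 0.1, and 657 to 1825 with a heart left out (658 and 657 without WT replicates 2 and 3, 728 and 726 without SIRT1 KO replicates 1 and 2), against 1250. Related genes past it numbered 2 with normexp, 3 with quantile normalization, 2 with median scaling, 14 with none, 0 with no filter, 2 with all 8 arrays above background, 0 with the analysis of variance, 2 with the mean of probes, and 0 to 1 with a heart left out.

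Small differences turned sign. With quantile normalization Srebf1 was at 0.0019, Insig2 at 0.025, Acat2 at -0.042, Pmvk at 0.0090, Lss at -0.061 and Dhcr7 at 0.010. Median scaling and no scaling shift every gene measured in all hearts by the same amount and leave its place among these as it was. Msmo1, which lacks SIRT1 KO replicate 1, moved from -0.34 to -0.47 with median scaling and to -0.59 with none. With median scaling Scap was at -0.064, Acat2 at -0.036 and Lss at -0.092. With no scaling Scap was at -0.15, Acat2 at -0.12, Lss at -0.18 and Fasn at -0.036. The mean of probes put Pmvk at 0.019 and Dhcr7 at 0.0029. With a heart left out, Srebf1 ranged from -0.061 to 0.052, Insig2 from -0.066 to 0.047, Acat2 from -0.046 to 0.20, Pmvk from -0.062 to 0.024 and Dhcr7 from -0.047 to 0.027. Beyond the scaling itself, the causes were not tested.

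The labels number the hearts alike in both genotypes. Deviations of same-numbered hearts correlated at 0.06 to 0.21 over probes and those of others at -0.18 to 0.09, and each of the 8 correlated best with its own number, a hint from the data and not from the design. With the number as a replicate block, 1185 probes, 0 members and 0 related genes passed, the member median was -0.23, and the dimmer Insig1 probe had a limma adjusted p of 0.0744. Normexp on the mean signal was not run because the files used here hold the median signal, and normexp on that was added after the data were seen.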
